A study of Mus musculus with 12 samples.

Results

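Fatty acid desaturases and elongases set the chain length and the double bonds of the fatty acids that a cell builds into its membranes and fat stores. Stearoyl-CoA desaturases (Scd genes) place the first double bond in saturated acyl chains, and Fads desaturases add further double bonds on the route to arachidonate and other polyunsaturated fatty acids. Elovl enzymes carry out the condensing step that lengthens a chain. In mouse liver several of these genes are known targets of the lipogenic transcription factor SREBP-1c, and the pathway is among the main lipid-making routes of hepatocytes and fat cells. The group described here holds 9 genes, Scd1, Scd2, Fads1, Fads2, Fads3, Elovl1, Elovl5, Elovl6 and Elovl7. They were taken by gene symbol from a list chosen with earlier results of these data known. All 9 were listed in both expression tables, out of 32579 genes listed in either, and all 9 passed the filter on low values in both lines.

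RNA was sequenced from 12 libraries of 2 mouse cell lines in a series on metabolic disease and diethyl phthalate (DEP), which is a plasticizer and solvent. AML12 is a hepatocyte line and was kept in DMEM/F12, while iWAT, given in the labels as white adipocytes, was kept in DMEM, so the line and its medium cannot be told apart in any difference between them. Each line gave 3 libraries labelled DMSO and 3 labelled DEP, the latter from cells exposed at confluence to 50 µM for 48 h. DMSO is named in the sample titles, while the treatment labels give medium with or without DEP, so the labels do not settle whether the controls received vehicle. The labels name no separate cultures behind the replicates, so p-values measure the spread between these libraries, which may be technical.

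The deposited values are FPKM, reads scaled by the length of the gene and the depth of the library, so that members can be ordered within a library. Library totals were inferred from the FPKM values and exon lengths and were not counted. By these totals, the depth of the AML12 controls was 42845105 to 46232482 reads and that of their treated counterparts 49249612 to 52915505. For iWAT, controls reached 50035049 to 54585090 and treated libraries 47735539 to 49059544 reads. Depth thus differed with treatment, upward in AML12 and downward in iWAT, and its part in the results was not tested. The least abundant member in any group, Elovl7 in iWAT, still had 433 to 538 reads per library. AML12 controls expressed 7 of 10 hepatocyte markers above the filter, with Hnf4a, a hepatocyte transcription factor, at 88.5 FPKM and serum albumin (Alb) at 25.9 FPKM, and simple epithelial keratins were abundant. Of 7 mature adipocyte markers 3 passed the filter in iWAT, with controls at 9.84 FPKM for Pparg, 8.46 for Lpl and 1.63 for Fabp4. Adiponectin (Adipoq), at 0.0184 FPKM, perilipin (Plin1), at 0.00285 FPKM, and Cidec were below it, and Lep was not listed. Of 6 mesenchymal markers 5 passed there, with Acta2, smooth muscle actin, at 129 FPKM in controls. In bulk RNA, fewer cells of a type and less RNA per cell cannot be told apart.

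Control levels of the members differed widely within each line. In AML12 controls Scd2 was highest at 406 ± 5.66 FPKM (SD, n = 3), followed by Scd1 at 228 ± 0.239, Fads3 at 118 ± 1.41, Fads1 at 86.8 ± 1.42, Fads2 at 76.2 ± 1.82 and Elovl5 at 38.4 ± 1.27 FPKM. The lowest were Elovl7 at 21.0 ± 0.296, Elovl1 at 18.8 ± 1.07 and Elovl6 at 5.59 ± 0.293 FPKM. No 2 neighbours in that order overlapped in their library values. In iWAT controls the order was Scd2 at 105 ± 0.803, Fads3 at 74.1 ± 1.60, Fads1 at 50.4 ± 0.439, Elovl5 at 40.3 ± 0.598, Scd1 at 36.6 ± 0.627, Elovl1 at 29.3 ± 0.117, Fads2 at 28.5 ± 0.947, Elovl6 at 3.98 ± 0.234 and Elovl7 at 2.29 ± 0.153 FPKM. Elovl1 and Fads2 overlapped there, and the other neighbours did not.

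The lines come from separate tables, so their levels are set side by side with no test. The mean of the AML12 controls was 9.16 times that of the iWAT controls for Elovl7, 6.21 times for Scd1, 3.87 times for Scd2 and 2.67 times for Fads2. For Fads1, Fads3 and Elovl6 the ratios were 1.72, 1.60 and 1.40, and Elovl5 at 0.953 and Elovl1 at 0.642 were the members with a lower mean in AML12. Scd1, the isoform that dominates in adult mouse liver, thus stood below its paralog Scd2 in FPKM in all 12 libraries, the hepatocyte line included.

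**Figure D1:**
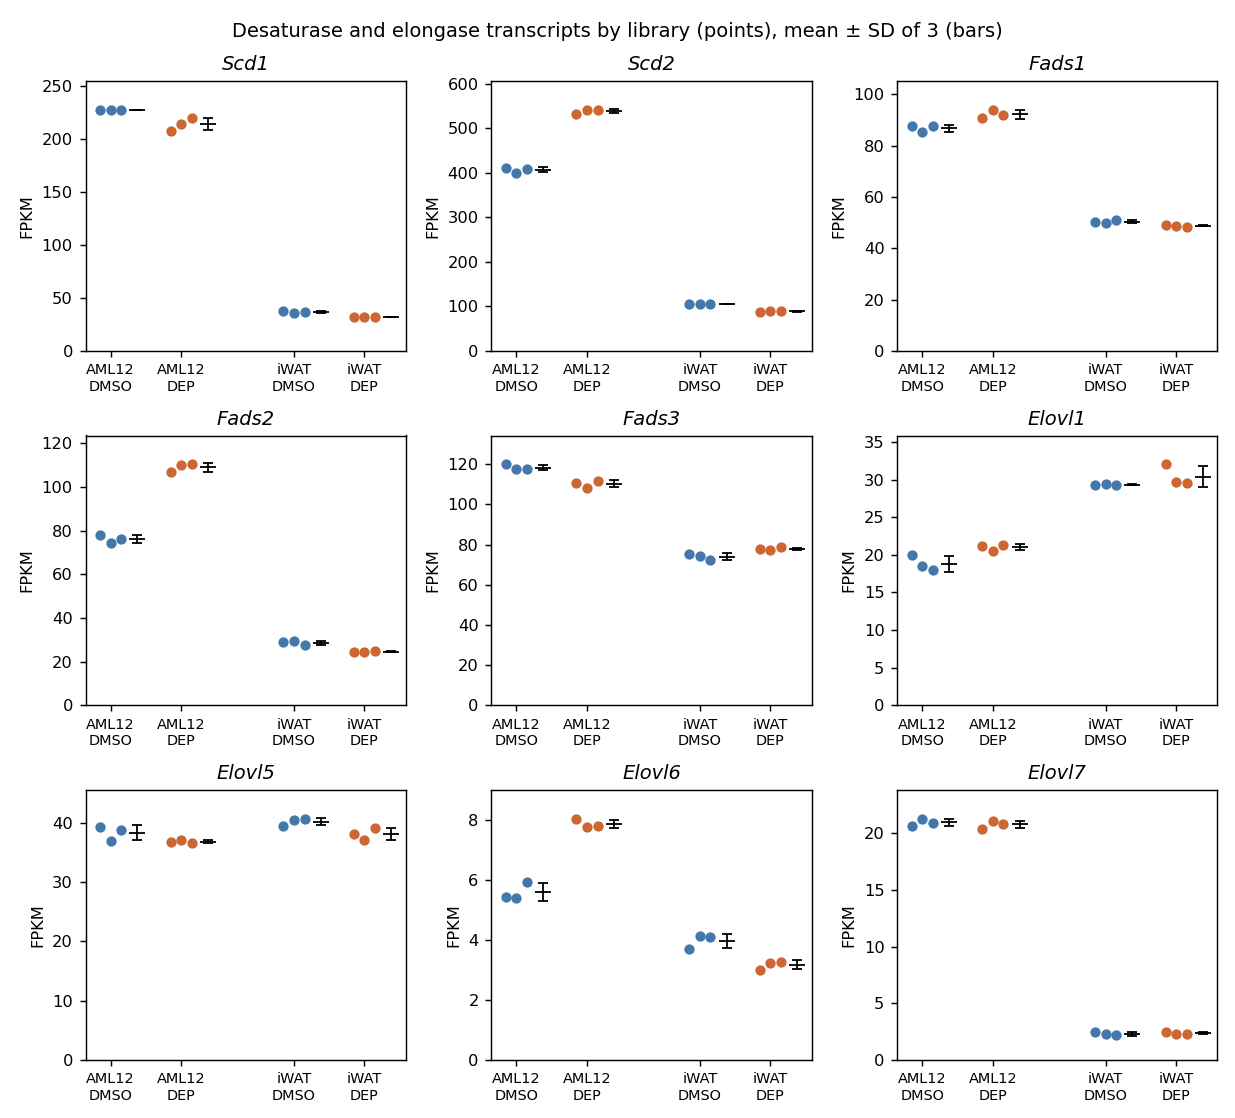
FPKM of each of the 9 genes in every library, with DMSO in blue and DEP in orange and the mean ± SD of 3 libraries beside each group; every vertical axis starts at 0. Scd2, Fads2 and Elovl6 are higher with DEP in AML12 and lower with DEP in iWAT, and no treated library overlaps a control library of its line for these 3 genes.

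With DEP, Scd2, Fads2 and Elovl6 rose in AML12 hepatocytes and fell in iWAT cells. Scd1 fell in both lines, and Elovl5 and Elovl7 passed the test in neither. In AML12, 5 members rose, 2 fell and 2 did not pass. In iWAT, none rose, 4 fell and 5 did not pass. The test was limma on log2(FPKM + 1) over all genes of a line's table that passed the filter, with Benjamini-Hochberg adjustment, and the threshold was an adjusted p of 0.05. Under 16 alternative settings, listed with the processing, the AML12 call of Scd1 was lost in 8. Those of Fads1 and Elovl1 in AML12 were lost in 6 each, that of Fads3 there in 1 and that of Elovl6 in iWAT in 7. Among all 12929 genes tested in AML12, 39.2% were called, 23.9% higher and 15.3% lower, while among 13482 in iWAT 8.54% were called, 4.03% higher and 4.52% lower. The median log2 change over the members was 0.09 in AML12 and -0.08 in iWAT, beside 0.03 and 0.01 over all genes tested. Libraries of the DMSO and DEP groups did not overlap for 7 of the 9 members in AML12 (5 higher and 2 lower with DEP), against 52% of all genes tested (31.6% higher and 20.4% lower). In iWAT they did not overlap for 8 of 9 (2 higher and 6 lower), against 31.1% (17.2% higher and 14% lower).

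Other measures moved with treatment beside these counts, and their part in them was not tested. Of the genes called in AML12, 60.9% were higher, a share that was 48.1% after centring each library on its median and 52.8% after quantile normalisation. Of 10 hepatocyte markers 7 passed the filter in AML12, and 5 of them rose, Apoa1, an apolipoprotein, fell from 3.26 to 2.21 FPKM (limma adjusted p = 0.0228), and 1 did not pass. The sum of all listed hepatocyte markers was 519.7 to 530.0 FPKM in AML12 controls and 584.7 to 597.6 FPKM with DEP, and most of it was transferrin (Trf) at 392 and 424 FPKM, while Fga, Apoc3 and Cyp2e1 were below the filter or not listed. Simple epithelial markers in AML12 summed to 3786 to 3816 FPKM in controls and 4276 to 4304 FPKM with DEP, and 2 of 4 tested rose, Krt8 and Krt18. Mesenchymal markers there summed to 18.7 to 20.1 FPKM and 13.2 to 14.2 FPKM, nearly all of it Ly6a, the 1 tested of 6, which fell.

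Leukocyte markers, 2 of 4 above the filter in each line, moved in opposite directions through Cd68, a lysosomal protein gene of macrophages. In AML12 their sum was 12.1 to 13.5 FPKM in controls and 5.87 to 6.27 FPKM with DEP, Cd68 fell from 11.1 to 4.34 FPKM (limma adjusted p = 2.31e-05) and Lyz2 was at 1.59 and 1.76 FPKM (adjusted p = 0.220). In iWAT the sum was 10.97 to 12.2 FPKM and 13.6 to 14.1 FPKM, and Cd68 rose from 10.9 to 13.4 FPKM (adjusted p = 0.0134). The defining genes Ptprc and Adgre1 were below the filter or not listed in both lines. In iWAT 5 of 6 mesenchymal markers were tested and all 5 fell, from a sum of 282.8 to 291.6 FPKM to one of 206.3 to 215.1 FPKM, and Dlk1 was not listed. Of 7 mature adipocyte markers 3 were tested there and 1, the lipoprotein lipase gene Lpl, fell; their listed sum was 19.6 to 20.4 FPKM in controls and 16.5 to 17.5 FPKM with DEP, with Adipoq, Plin1, Cidec and Lep below the filter or not listed.

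The stearoyl-CoA desaturases are described first. Scd2, an isoform best known in mouse from brain and from early life, stood at 411, 400.2 and 408 FPKM in the 3 AML12 controls and at 533, 541 and 540.2 FPKM with DEP. Every treated library lay above every control, and the ratio of the means was 1.32, with a log2 fold change of 0.40 ± 0.02 (SE, limma adjusted p = 2.68e-05). In iWAT the Scd2 controls were at 104, 105 and 106 FPKM and the treated libraries at 87.3, 88.6 and 89.3 FPKM. Here every treated library lay below the controls, with a ratio of 0.842 and a log2 fold change of -0.25 ± 0.02 (adjusted p = 0.000391).

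Scd1 is the other isoform expressed in both lines. In AML12 its controls were close together at 227, 228 and 228 FPKM, and the treated libraries were at 208, 215 and 221 FPKM. All 3 treated libraries were lower, by a ratio of 0.943 and a log2 fold change of -0.09 ± 0.02 (limma adjusted p = 0.0294). That call ended without DMSO replicate 1, 2 or 3 or DEP replicate 2, with adjusted p-values of up to 0.0813. It also ended with quantile normalisation (0.224), without the filter (0.0789), without the prior trend of limma (0.0765) and in 1 further alternative given with the processing. In iWAT Scd1 fell from 37.3, 36.1 and 36.5 FPKM to 32.4, 32.2 and 32.1 FPKM, with no overlap. The ratio was 0.879 and the log2 fold change -0.18 ± 0.02 (adjusted p = 0.00352).

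Because the isoforms share a reaction, their balance is given as well, as a description. In AML12 the ratio of Scd2 to Scd1 in FPKM was 1.81, 1.76 and 1.79 in the controls and 2.56, 2.52 and 2.45 with DEP, so that Scd2 made up 64.1 ± 0.345% of the summed Scd1 and Scd2 FPKM in controls and 71.5 ± 0.444% with DEP. The sum itself was 634 ± 5.42 FPKM in controls and 752 ± 10.3 FPKM with DEP. In iWAT the ratio was 2.79, 2.92 and 2.89 in controls and 2.69, 2.75 and 2.79 with DEP, where the highest treated library lay just under the lowest control, and the sum was 142 ± 0.392 and 121 ± 0.824 FPKM. The Scd genes are close paralogs, and how the authors' counting divided reads shared by them is not given in the sources used here.

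The Fads desaturases follow. Fads2, which carries out the first desaturation of that route, stood at 78.1, 74.5 and 76.1 FPKM in AML12 controls and at 107, 110.0 and 110.3 FPKM with DEP. This was the largest rise among the 9 members, with no overlap, a ratio of 1.43 and a log2 fold change of 0.51 ± 0.03 (limma adjusted p = 2.90e-05), and 3.82% of all genes tested in AML12 changed by more. In iWAT Fads2 was at 28.8, 29.4 and 27.5 FPKM in controls and at 24.5, 24.5 and 24.6 FPKM with DEP. It was lower in every treated library, with a ratio of 0.860 and a log2 fold change of -0.21 ± 0.03 (adjusted p = 0.00656).

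Fads1, which carries out the later desaturation that yields arachidonate, moved little. Its AML12 controls were at 87.6, 85.2 and 87.6 FPKM and its treated libraries at 90.8, 94.0 and 91.8 FPKM, a rise with a log2 fold change of 0.09 ± 0.02 (limma adjusted p = 0.0206). That call ended without DMSO replicate 2, DEP replicate 2 or DEP replicate 3, with adjusted p-values of up to 0.0688, and with each library centred on its median (0.0971), without the prior trend (0.0610) and in 1 further alternative given with the processing. In iWAT Fads1 was at 50.4, 50.0 and 50.9 FPKM in controls and 49.0, 48.8 and 48.5 FPKM with DEP. The groups did not overlap, but the log2 difference of -0.05 ± 0.02 did not pass (adjusted p = 0.148), and its 95% interval ran from -0.09 to -0.01. The ratio of Fads2 to Fads1 in FPKM was 0.892, 0.875 and 0.868 in AML12 controls and 1.17, 1.17 and 1.2 with DEP, so Fads2 was below Fads1 in every AML12 control and above it in every AML12 treated library. In iWAT that ratio was 0.566 ± 0.0236 in controls and 0.504 ± 0.00403 with DEP, with no overlap.

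Fads3, a member of the family reported to desaturate sphingoid bases, fell in AML12, where Fads2 rose. There it was at 120, 117 and 117 FPKM in controls and at 111, 108 and 112 FPKM with DEP, lower in every treated library, with a log2 fold change of -0.10 ± 0.02 (limma adjusted p = 0.00820). With quantile normalisation of the libraries that call ended (adjusted p = 0.0581). In iWAT Fads3 was at 75.6, 74.2 and 72.4 FPKM in controls and at 77.7, 77.3 and 78.6 FPKM with DEP. All treated libraries were above the controls there, but the log2 difference of 0.07 ± 0.02 did not pass (adjusted p = 0.0906). It passed in a joint fit of the 12 libraries (adjusted p = 0.0473) and with voom on recovered reads (0.0351).

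Among the elongases, promoter sequence is shown for Elovl6, which changed in both lines, and Elovl5, which passed in neither, a pair chosen after their values were seen, so that their upstream letters can be compared. RefSeq windows were at hand for 6 members (Fads2, Fads3, Elovl1, Elovl5, Elovl6 and Elovl7), and those of Scd1, Scd2 and Fads1 are not shown. The sequences are from RefSeq on GRCm38.p6, plus strand, and cover 250 to 51 bases before the annotated start of Elovl6 (chr3:129532136-129532335) and Elovl5 (chr9:77917115-77917314). Capitals mark letters of a motif searched on both strands.
Elovl6: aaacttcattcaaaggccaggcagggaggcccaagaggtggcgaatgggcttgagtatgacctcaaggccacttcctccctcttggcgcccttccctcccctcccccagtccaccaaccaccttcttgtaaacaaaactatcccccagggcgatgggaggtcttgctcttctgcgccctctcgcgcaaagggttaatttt
Elovl5: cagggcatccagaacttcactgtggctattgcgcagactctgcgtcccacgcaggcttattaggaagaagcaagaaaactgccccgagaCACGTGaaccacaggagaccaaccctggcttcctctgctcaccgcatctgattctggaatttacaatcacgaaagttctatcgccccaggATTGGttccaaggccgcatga

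The motifs were the sterol regulatory element TCACNCCAC, the NF-Y box CCAAT, the E-box CACGTG and the GC box GGGCGG, none of which overlapped another in the windows printed. Over 32851 RefSeq promoter windows of 300 bases, 1.24% held the first, 37.4% the second, 7.15% the third and 35.7% the fourth. The Elovl6 window held none of the 4, and the Elovl5 window held 1 CACGTG and 2 CCAAT boxes on the minus strand, of which 1 lies in the stretch printed. None of the 6 members' windows held TCACNCCAC, and the Fads2 window held 1 GGGCGG. A GENCODE M21 transcript of Fads2 begins 243 bases before the RefSeq start, so that nearly all of that window, the match included, lies in transcribed sequence. A match is a description of letters and not a site of binding. Only these 4 strings were searched, so the absence of a match says nothing of variant sites within these windows or of a factor outside them.

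Elovl6, which lengthens saturated chains of the length that fatty acid synthase releases, changed most among the 4 elongases. In AML12 it stood at 5.43, 5.41 and 5.93 FPKM in controls and at 8.04, 7.78 and 7.81 FPKM with DEP. All treated libraries were above all controls, with a ratio of 1.41 and a log2 fold change of 0.43 ± 0.04 (limma adjusted p = 0.000369). In iWAT it stood at 3.71, 4.13 and 4.10 FPKM in controls and at 3.0, 3.23 and 3.27 FPKM with DEP. All treated libraries were below the controls, with a ratio of 0.796 and a log2 fold change of -0.26 ± 0.05 (adjusted p = 0.0300). The iWAT call ended without DMSO replicate 2 or 3 or without DEP replicate 1, 2 or 3, with adjusted p-values of up to 0.103, without the filter (0.0839) and in 1 further alternative given with the processing, while the direction stayed the same.

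Elovl1, which makes saturated and monounsaturated very long chains, was at 20.0, 18.5 and 18.0 FPKM in AML12 controls and at 21.1, 20.6 and 21.3 FPKM with DEP. The groups came close without overlapping, and the log2 fold change was 0.15 ± 0.04 (limma adjusted p = 0.0266). The call ended without DMSO replicate 2 or 3 or without DEP replicate 1 or 3, with adjusted p-values of up to 0.0801, after median centring (0.0624) and without the filter (0.0685). The mitotic regulator gene Cdc20 lies on the opposite strand and shares 53 of the 2726 exon bases of Elovl1 in GENCODE M21. Cdc20 rose in AML12 by 0.28 ± 0.02 on the log2 scale (adjusted p = 0.000230), and since the sources used here do not say whether counting used strand, its part in the Elovl1 value was not tested. In iWAT Elovl1 was at 29.3, 29.5 and 29.2 FPKM in controls and 32.0, 29.7 and 29.5 FPKM with DEP, with the lowest treated library just above the highest control, and the log2 difference of 0.05 ± 0.03 did not pass (95% interval -0.03 to 0.13, adjusted p = 0.418).

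Elovl5, the elongase of polyunsaturated chains, passed in neither line. In AML12 it was at 39.3, 36.9 and 38.9 FPKM in controls and at 36.8, 37.2 and 36.6 FPKM with DEP, groups that overlap, with a log2 difference of -0.06 ± 0.03 (95% interval -0.12 to 0.01, limma adjusted p = 0.157). In iWAT it was at 39.6, 40.5 and 40.7 FPKM in controls and at 38.2, 37.1 and 39.1 FPKM with DEP, without overlap, at -0.08 ± 0.03 (95% interval -0.14 to -0.02, adjusted p = 0.120). The AML12 difference passed after median centring (adjusted p = 0.0334) and without DMSO replicate 2 (0.0420). Set against Elovl5 in the same library, Elovl6 was at a ratio of 0.146 ± 0.00723 in AML12 controls and 0.214 ± 0.00478 with DEP, and at 0.0989 ± 0.00444 in iWAT controls and 0.0832 ± 0.00436 with DEP, with no overlap in either line.

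Elovl7, which lengthens saturated long chains, also passed in neither line. In AML12 it was at 20.7, 21.3 and 21.0 FPKM in controls and at 20.4, 21.1 and 20.9 FPKM with DEP, with a log2 difference of -0.01 ± 0.02 (95% interval -0.07 to 0.04, limma adjusted p = 0.711). In iWAT it was at 2.46, 2.25 and 2.16 FPKM in controls and at 2.49, 2.28 and 2.30 FPKM with DEP, at 0.03 ± 0.06 (95% interval -0.10 to 0.16, adjusted p = 0.796). The groups overlapped in both lines.

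**Figure D2:**
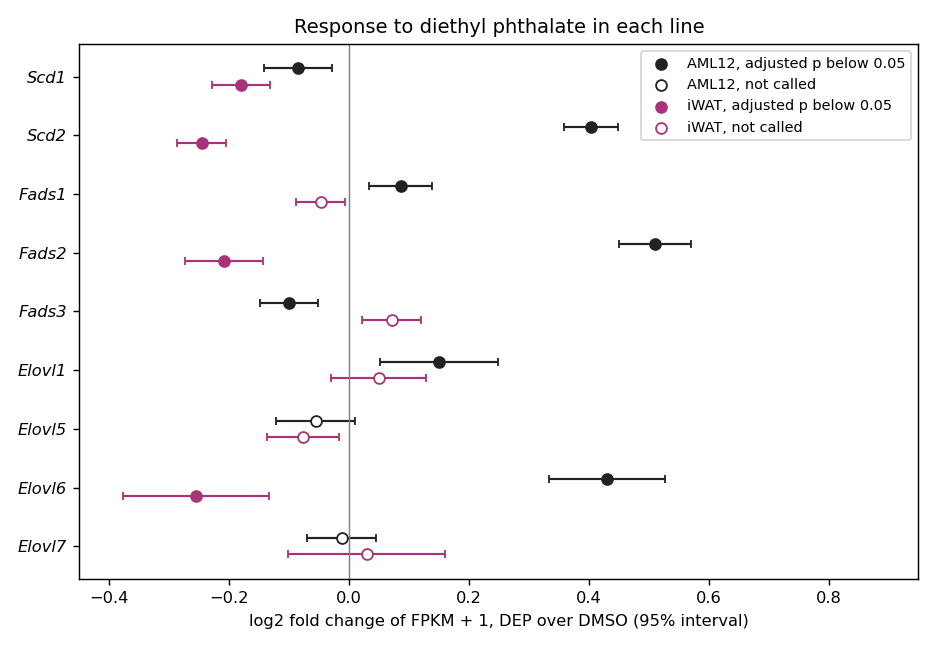
Log2 fold change of FPKM + 1 (DEP over DMSO) for each gene in AML12 (black) and iWAT (purple), with 95% intervals from limma; filled circles passed an adjusted p below 0.05. Scd2, Fads2 and Elovl6 lie to the right of 0 in AML12 and to the left of 0 in iWAT, whereas Scd1 lies to the left in both.

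Whether the lines responded differently was examined with 1 limma fit of all 12 libraries through its line-by-treatment interaction term. Of the 9 members 6 differed, 5 with a more positive change in AML12 and 1 with a more negative one. Over the 14651 genes tested, 29.2% differed, 17.6% in the positive direction and 11.7% in the negative. Fads2 differed by 0.72 ± 0.04 on the log2 scale (AML12 change minus iWAT change, limma adjusted p = 4.41e-07), Elovl6 by 0.69 ± 0.06 (adjusted p = 2.37e-05) and Scd2 by 0.65 ± 0.02 (adjusted p = 7.29e-08). Of all genes tested, 2.02%, 2.25% and 2.61% had a larger difference between the lines than these. Smaller differences were found for Fads3 at -0.17 ± 0.03 (adjusted p = 0.00101), Fads1 at 0.13 ± 0.03 (adjusted p = 0.00269) and Scd1 at 0.09 ± 0.03 (adjusted p = 0.0345). The one for Scd1 ended when any of 9 single libraries was left out, which were AML12 DMSO replicates 1, 2 and 3, AML12 DEP replicates 2 and 3, iWAT DMSO replicates 1 and 3 and iWAT DEP replicates 2 and 3, with adjusted p-values of up to 0.0778. It also ended after median centring (0.161), with a pseudocount of 5 (0.0622), without the prior trend (0.0757) and in 1 further alternative given with the processing. Elovl1, Elovl5 and Elovl7 did not pass, with adjusted p-values of 0.206, 0.731 and 0.602 and 95% intervals of -0.02 to 0.22, -0.06 to 0.10 and -0.16 to 0.07. The one for Elovl1 passed without AML12 DMSO replicate 1 (adjusted p = 0.0443).

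**Figure D3:**
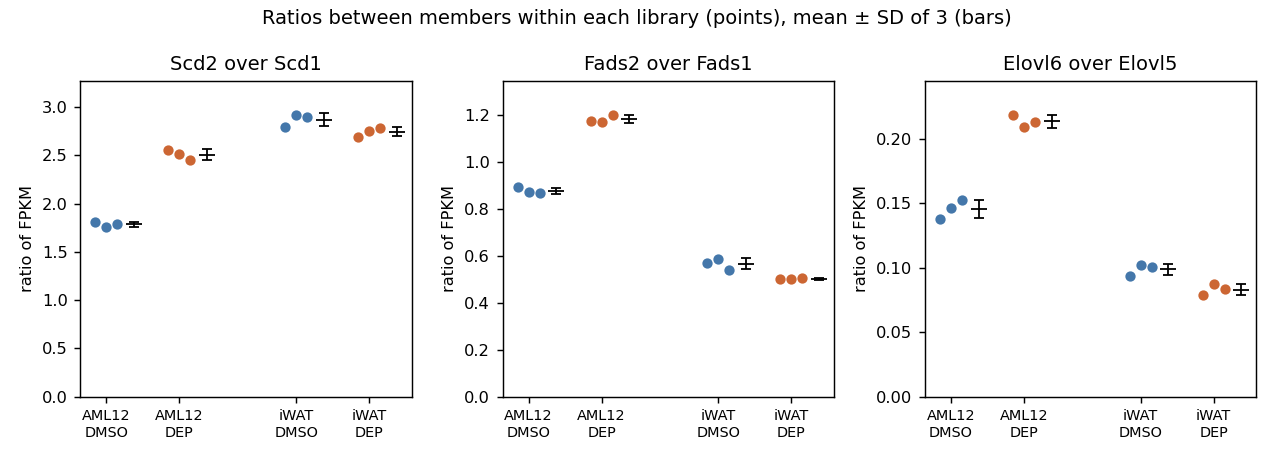
Ratio of FPKM between paired members within each library (DMSO blue, DEP orange), with mean ± SD of 3 libraries per group and axes starting at 0. In AML12 all 3 ratios are higher with DEP than in controls; in iWAT all 3 are lower with DEP, and for Scd2 over Scd1 the gap between the groups there is narrow.

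Other genes of the pathway were taken from lists chosen by function, and are described by counts. Of all genes tested, 23.9% rose and 15.3% fell in AML12, and 4.03% rose and 4.52% fell in iWAT. No list was tested against these shares, and counts near them are no result about a list. Most paralogs of the members were scarcely expressed. In AML12 only Degs1, which desaturates dihydroceramide, passed the filter among 8 paralogs, and it fell from 60.5 to 53.7 FPKM (log2 fold change -0.17 ± 0.02, limma adjusted p = 0.000795). In iWAT Degs1 rose from 76.1 to 84.7 FPKM (0.15 ± 0.03, adjusted p = 0.0148). The elongases Elovl3 and Elovl4 passed the filter in iWAT, Elovl4 at 13.0 FPKM in controls and 15.4 with DEP (0.23 ± 0.06, adjusted p = 0.0573). Scd3 and Scd4 were at or below 0.219 FPKM as group means in either line.

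The remaining enzymes of the elongation cycle are the reductases and dehydratases that follow the condensing step. Of 5 tested in AML12, 1 fell and none rose, with a median log2 change of 0.04, and of 6 tested in iWAT none passed, with a median of -0.04. Hsd17b12, the ketoacyl-CoA reductase that acts after every Elovl enzyme, was at 77.9 and 80.1 FPKM in AML12 (limma adjusted p = 0.208) and at 52.9 and 50.6 FPKM in iWAT (adjusted p = 0.190). Hacd3, a dehydratase, fell in AML12 from 43.1 to 40.2 FPKM (-0.10 ± 0.03, adjusted p = 0.0222).

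Desaturases take electrons from cytochrome b5 and its reductases. In AML12, 1 of 5 tested genes of that supply rose and 2 fell. Cyb5b, cytochrome b5 of the outer mitochondrial membrane, rose from 73.3 to 90.5 FPKM (log2 fold change 0.30 ± 0.02, limma adjusted p = 0.000112). Cyb5a, the form of the endoplasmic reticulum, where these desaturases sit, fell from 168 to 139 FPKM (-0.27 ± 0.02, adjusted p = 0.000162), and the reductase gene Cyb5r1 fell from 16.2 to 11.5 FPKM (-0.46 ± 0.03, adjusted p = 0.000150). Cyb5r3, the most abundant reductase gene of the list in AML12, did not pass there (96.5 and 95.9 FPKM, adjusted p = 0.792) or in iWAT (71.1 and 68.9 FPKM, adjusted p = 0.261). In iWAT 2 of 7 fell, Cyb5a from 12.5 to 10.3 FPKM (-0.25 ± 0.03, adjusted p = 0.00440) and Cyb5b from 91.1 to 83.8 FPKM (-0.12 ± 0.02, adjusted p = 0.0130).

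Of 9 tested genes listed under saturated fatty acid synthesis, 4 rose and 2 fell in AML12. The list includes the genes of the mitochondrial enzymes Mcat, Oxsm and Mecr, which passed in neither line. Fasn, the fatty acid synthase, was at 24.4 and 30.7 FPKM (log2 fold change 0.32 ± 0.03, limma adjusted p = 0.000173), Acly, which makes cytosolic acetyl-CoA, at 51.8 and 60.6 FPKM (0.22 ± 0.02, adjusted p = 0.000195), and Acaca, acetyl-CoA carboxylase, at 7.2 and 8.14 FPKM (0.16 ± 0.04, adjusted p = 0.0143). Acss2, an acetyl-CoA synthetase, fell (-0.18 ± 0.05, adjusted p = 0.0298). In iWAT 1 of 9 rose and 1 fell. There Fasn rose from 34.3 to 37.1 FPKM (0.11 ± 0.02, adjusted p = 0.0323), and the citrate carrier gene Slc25a1 fell by 0.12 on the log2 scale (adjusted p = 0.0455). Elovl6, whose substrate Fasn makes, fell there, a call that was lost in 7 of 16 alternatives. No alternatives were run for the calls of Fasn and Slc25a1. Acaca was at 5.30 and 5.19 FPKM in iWAT (adjusted p = 0.735).

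Long-chain acyl-CoA synthetases, which activate fatty acids for these enzymes, changed in 2 of 4 tested cases in each line. Acsl4, which prefers arachidonate, fell from 54.3 to 44.1 FPKM in AML12 (log2 fold change -0.29 ± 0.02, limma adjusted p = 0.000217) and from 22.9 to 20.2 FPKM in iWAT (-0.17 ± 0.03, adjusted p = 0.0191). Acsl3 rose from 50.7 to 55.4 FPKM in AML12 (0.13 ± 0.02, adjusted p = 0.00258) and fell from 13.5 to 10.96 FPKM in iWAT (-0.28 ± 0.05, adjusted p = 0.0170).

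Of 12 tested genes that use the acyl chains in AML12, 3 rose and 4 fell, beside 23.9% and 15.3% of all genes tested. Cers2, which puts very long chains into ceramides, fell from 83.4 to 68.0 FPKM (log2 fold change -0.29 ± 0.02, limma adjusted p = 0.000128), and Soat1, which makes sterol esters, from 7.12 to 5.44 FPKM (-0.33 ± 0.04, adjusted p = 0.00106). The lysophospholipid acyltransferase genes Lpcat4 and Mboat1 rose by 0.16 and 0.09 on the log2 scale (adjusted p = 0.0140 and 0.0199). In iWAT 1 of 13 rose, Mboat7, which places arachidonate in phosphatidylinositol, from 7.15 to 8.15 FPKM (0.17 ± 0.03, adjusted p = 0.0199), and none fell. Lpcat3, the acyltransferase that favours polyunsaturated chains in phosphatidylcholine, was at 41.1 and 42.4 FPKM in AML12 (adjusted p = 0.305) and 23.0 and 22.1 FPKM in iWAT (adjusted p = 0.526).

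Regulators of these genes rose in 3 and fell in 3 of 17 tested cases in AML12, beside 23.9% and 15.3% of all genes tested. Srebf1, which encodes SREBP-1, rose from 35.2 to 46.2 FPKM (log2 fold change 0.38 ± 0.02, limma adjusted p = 5.18e-05). Insig1, which holds SREBPs in the endoplasmic reticulum and is itself one of their targets, rose from 18.1 to 25.4 FPKM (0.47 ± 0.04, adjusted p = 0.000285), and Nr1h3, the sterol receptor LXR alpha, from 9.29 to 10.3 FPKM (0.13 ± 0.04, adjusted p = 0.0466). Insig2 fell from 22.7 to 18.5 FPKM (-0.28 ± 0.02, adjusted p = 0.000170). Srebf2 was at 67.2 and 67.7 FPKM (adjusted p = 0.782), and Ppara, at 0.241 FPKM in controls, was not tested.

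In iWAT none of 16 tested regulators rose and 2 fell. Insig1 fell from 37.1 to 32.4 FPKM (log2 fold change -0.19 ± 0.03, limma adjusted p = 0.0131), and Insig2 from 20.0 to 18.2 FPKM (-0.13 ± 0.02, adjusted p = 0.0222). Srebf1 was at 11.4 FPKM in controls and 11.3 with DEP (adjusted p = 0.942), Srebf2 at 42.2 and 41.7 (adjusted p = 0.775) and Nr1h3 at 2.10 and 1.84 FPKM (adjusted p = 0.228). Between the lines the response of Insig1 differed by 0.66 ± 0.05 (limma adjusted p = 1.09e-05) and that of Srebf1 by 0.39 ± 0.03 (adjusted p = 1.46e-05), while that of Srebf2 did not pass (adjusted p = 0.663).

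Peroxisomal genes that shorten very long chains fell in 3 of 6 tested cases in AML12 and in 2 of 6 in iWAT, with none up. The thiolase gene Acaa1a fell by 0.20 on the log2 scale in both lines (limma adjusted p = 0.00359 in AML12 and 0.0383 in iWAT), and Abcd3, a peroxisomal transporter gene, fell by 0.07 and 0.15 (adjusted p = 0.0431 and 0.0263). Of the genes that turn arachidonate into signalling lipids, 3 of 6 tested fell in AML12 and 1 of 5 in iWAT, with none up. Ptgs2, the inducible cyclooxygenase, fell from 31.4 to 23.1 FPKM in AML12 (-0.43 ± 0.04, adjusted p = 0.000287) and from 47.8 to 36.9 FPKM in iWAT (-0.36 ± 0.03, adjusted p = 0.0010). Its constitutive partner Ptgs1 fell by 0.29 on the log2 scale in AML12 (adjusted p = 0.000162), as did Ltc4s, leukotriene C synthase, by 0.47 (adjusted p = 0.00117).

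**Figure D4:**
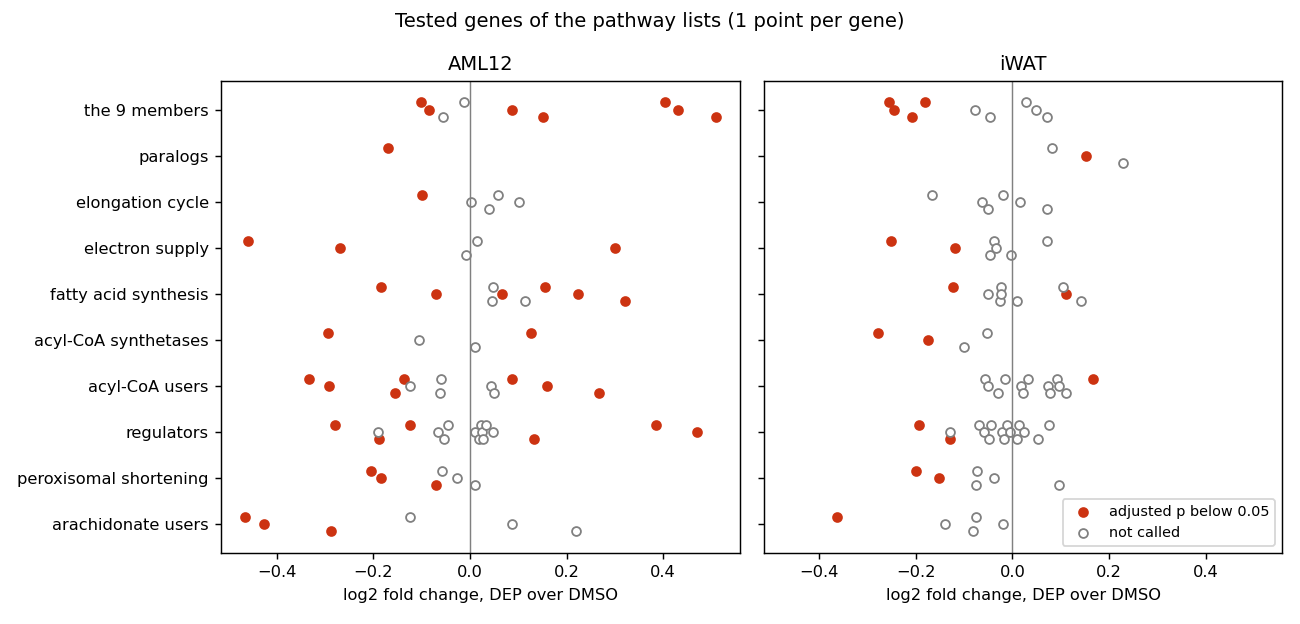
Log2 fold change (DEP over DMSO) of every tested gene of the pathway lists in AML12 (left) and iWAT (right), 1 point per gene; red points passed an adjusted p below 0.05 and open points did not. The top row holds the 9 desaturases and elongases, of which 5 rose and 2 fell in AML12 and 4 fell in iWAT.

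Genes with the most similar pattern over the 12 libraries were found from the root mean square difference between centred log2(FPKM + 1) profiles, among 7496 other genes with a mean of at least 5 FPKM. Each profile was centred on its mean over both lines together, so the gap in level between the lines counts along with the change with DEP. A near gene thus need not share the response. Srebf1, near Fads2, was at 11.4 and 11.3 FPKM in iWAT (DMSO and DEP), where Fads2 fell. Rhou, near Scd1, was at 43.4 and 44.9 FPKM in AML12, where Scd1 fell. Closest to Scd2 was Ankrd1 (0.0489), which stood at 87.3 and 115 FPKM in AML12 (DMSO and DEP) and at 20.7 and 18.1 FPKM in iWAT, followed by Car5b and Cdc42ep2 (0.0911 and 0.0981). Closest to Fads2 were Nek6, Srebf1 and Cavin2 (0.0714, 0.0951 and 0.105), and closest to Elovl6 were Stard4, Idi1 and Msmo1 (0.0752, 0.0756 and 0.0830). Stard4 carries sterol between membranes, and Idi1 and Msmo1 are enzymes of cholesterol synthesis. For Scd1 they were Rhou, Gpd1l and Acsbg1 (0.0607, 0.0688 and 0.0742), for Fads1 H3f3a, Tsta3 and Stx16 (0.0320 to 0.0337), and for Fads3 Utrn, Crebl2 and Gdi2 (0.0292 to 0.0342). For Elovl1 they were Rrp9, Sept11 and Aqr (0.0303 to 0.0390), for Elovl5 Nedd4 and Eif2s3x (0.0260 and 0.0338), and for Elovl7 Gpd1l, Anxa3 and Lrp11 (0.0532 to 0.0569).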

How the data were processed

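RNA-seq libraries from AML12 and iWAT cells, 3 per group, were analysed from 2 gene tables of FPKM, 1 per line, as deposited by the authors. Per the submitters' processing notes the reads were handled with Trimmomatic and HISAT2 on GRCm39; the counting tool, its annotation and its strand setting are not given in the sources used here. Gene symbols, exon lengths and overlaps came from GENCODE M21, an annotation of GRCm38, used for names and lengths only, and matched 95.1% of the IDs in AML12 and 94.9% in iWAT. Library totals were inferred from the commonest value of FPKM times exon length in each library. With these totals, whole reads (within 0.001) were recovered for 89.4% and 89.3% of genes, the members included. An alternative count-based fit used these reads.

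Values were tested as log2(FPKM + 1) with limma 3.58.1 (R 4.3.3, trend in the prior variance) on genes with at least 0.5 FPKM in 3 libraries, with Benjamini-Hochberg adjustment over all of them; a fold change on this scale understates that of low genes. Each line was fitted alone, and the difference between lines in a joint fit. The scripts were tested on simulated data.

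The members and lists were chosen with earlier results of these data known. All members are named with every library's value; from each list up to 4 called genes with the smallest p in a line are named, along with a fixed set (Srebf1, Srebf2, Insig1, Nr1h3, Ppara, Fasn, Acaca, Lpcat3 and Hsd17b12), and for each member the 3 genes nearest in profile. A few genes that this rule names are not reported here. Elovl3, Elovl4, Scd3, Scd4, Cyb5r3, Mcat, Oxsm and Mecr, and pathway genes given in both lines though called in 1, were named after their values were seen. Alternatives were the pseudocount, the filter, centring, quantile normalisation, the prior trend, a joint fit, a replicate block, voom on recovered reads and leaving out each library. Apart from the members, calls of single genes were not checked by them.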

Additional observations from a re-analysis of the deposited data

Results flagged for a closer look

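For 6 of the 9 members the response to DEP differed between AML12 and iWAT by the interaction test in limma over 12 libraries. Over all 14651 genes tested the share that differed was 29.2%. The log2 change in AML12 minus that in iWAT was 0.72 for Fads2 (adjusted p = 4.41e-07), 0.69 for Elovl6 (adjusted p = 2.37e-05) and 0.65 for Scd2 (adjusted p = 7.29e-08). For these 3 genes all AML12 treated libraries lay above their controls and all iWAT treated libraries below theirs. The difference was -0.17 for Fads3 (adjusted p = 0.00101), with treated libraries lower in AML12 and higher in iWAT, and 0.13 for Fads1 (adjusted p = 0.00269), with the opposite pattern. Within iWAT alone neither change passed (limma adjusted p = 0.0906 for Fads3 and 0.148 for Fads1). In AML12 alone the call of Fads1 was lost in 6 of 16 alternatives and that of Fads3 in 1. For Scd1 it was 0.0948 (adjusted p = 0.0345), with treated libraries below their controls in both lines. That Scd1 call was lost in 13 of 21 alternatives. The lines were grown in different media, which cannot be told apart from the line.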

How the results depend on the processing

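Over 477 alternatives to the members' 27 tests, 431 kept their side of the threshold, 41 lost a call, 5 gained one and none reversed a called direction. The sign changed in uncalled tests, once (1) for Elovl7 in each line and in 2 alternatives for the Elovl5 difference between lines. Scd2 and Fads2 in both lines and between lines, Elovl6 in AML12 and between lines, Scd1 in iWAT, and Fads1 and Fads3 between lines kept their calls in every alternative run. Of members called lower in AML12 (2), 1 was left without the filter, without the prior trend and with the replicate block, none (0) after quantile normalisation and 1 to 2 on leaving out a library; of those called higher (5), 3 were left after median centring and 3 to 5 on leaving out a library. In iWAT 1 member was called higher in the joint fit and 1 with voom. Counts over all genes in iWAT (543 higher, 609 lower) were 293 and 371 without the filter, 277 and 396 without the trend, 190 and 313 with the replicate block, 1012 and 917 with voom, and 192 to 268 and 319 to 421 on leaving out any 1 of the 6 iWAT libraries. Correlations of deviations were -0.06 to 0.03 for same-numbered libraries and -0.05 to 0.05 for differently numbered ones, which gave no sign of pairing. Whether same-numbered libraries were prepared together is not given in the labels. With the replicate block, Scd1 (adjusted p = 0.0663) and Fads1 (0.0722) in AML12, Elovl6 in iWAT (0.0514) and the Scd1 difference between lines (0.0673) missed the threshold. Of calls higher in AML12 than in iWAT or lower (2575 and 1708), median centring gave 2032 and 2220 and quantile normalisation 2134 and 2013. With a pseudocount of 5 the log2 change of Elovl6 was 0.28 in AML12 and -0.14 in iWAT, with both calls kept. The cause of these shifts was not tested. Depth limits Elovl7 in iWAT most, at 433 to 538 reads per library.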
